A study of Mus musculus with 6 samples.

Results

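The Hox genes of the mouse are the 39 protein-coding genes whose symbols join Hoxa, Hoxb, Hoxc or Hoxd with a number. They were taken by symbol from 21853 protein-coding genes of the GENCODE annotation of GRCm38 (mm10), and they were examined in the list of H3K27ac peaks of control mouse embryonic stem cells (mESCs). H3K27ac, acetylation of histone H3 at lysine 27, marks active promoters and enhancers, and it was measured by chromatin immunoprecipitation and sequencing (ChIP-seq). All samples came from a single line, E14 (E14Tg2A with Rosa26-Cre and Oct4-IRES-Puro), grown in serum-free N2B27 medium with LIF and the kinase inhibitors PD0325901 and CT-99021, and each received spike-in chromatin from human HEK293T cells. Control cells were given DMSO for 2 h and were sampled in 2 replicates. Cells given the CDK9 inhibitor NVP-2 (100 nM) or the DNA-binding transcription inhibitor actinomycin D (800 nM) for 2 h were also sampled in 2 replicates each and were not analysed here. The control list is pooled over both replicates and holds positions without heights, so values below carry no replicate error, no group was tested against another, and the reads behind each peak are not given. Intervals on shares are 95% Wilson intervals and cover counting error only, and neighbouring Hox genes can share a peak and are not independent.

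Hox genes encode transcription factors with a homeodomain that give cells their position along the head-to-tail axis of the embryo. In mammals they lie in 4 clusters that arose by duplication, so genes with the same number in different clusters are paralogs. The genes of a cluster are transcribed in the same direction, and those with low numbers are switched on earlier and nearer the head than those with high numbers. In pluripotent cells Hox genes are known as targets of Polycomb repression, and retinoic acid is a known inducer of the low-numbered genes.

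The embryonic stem cell label was checked at 10 marker promoters, and 8 carried a peak within 1 kb of the transcription start site (TSS; 80.0%, 95% interval 49.0 to 94.3%). Klf4 and Esrrb were the exceptions, though a different isoform of Esrrb did start at a peak. None of the 4 markers of other lineages (Gata1, Neurod1, Alb and Myod1) had a promoter peak, which allows a share of up to 49.0%. The share of all protein-coding promoters, 48.8%, lay just below the former interval and just inside the latter. The list held 22973 peaks on 21 chromosomes and covered 3.29% of their bases.

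The sequences below show 250 bases upstream of the TSS of 3 genes of paralog group 9, which held promoters with and without a peak, and of Hoxd1, which had no peak although this stretch is rich in CpG. They run 5′ to 3′ on the strand of the gene and come from the RefSeq GRCm38 genome, and capitals mark CpG dinucleotides. Hoxc9 (chr15:102976782-102977031, plus strand) and Hoxd9 (chr2:74697477-74697726, plus strand) had a peak, and Hoxa9 (chr6:52227371-52227620, minus strand) and Hoxd1 (chr2:74762730-74762979, plus strand) had none.
Hoxa9: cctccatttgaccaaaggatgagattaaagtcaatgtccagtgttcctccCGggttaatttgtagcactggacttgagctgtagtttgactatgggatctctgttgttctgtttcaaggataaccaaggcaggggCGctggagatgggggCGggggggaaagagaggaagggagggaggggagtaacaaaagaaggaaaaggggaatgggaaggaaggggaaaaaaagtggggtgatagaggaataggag
Hoxc9: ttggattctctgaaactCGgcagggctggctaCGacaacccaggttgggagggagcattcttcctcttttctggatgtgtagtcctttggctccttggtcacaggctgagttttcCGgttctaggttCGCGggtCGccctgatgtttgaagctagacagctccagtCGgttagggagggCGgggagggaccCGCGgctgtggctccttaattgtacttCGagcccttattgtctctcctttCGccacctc
Hoxd9: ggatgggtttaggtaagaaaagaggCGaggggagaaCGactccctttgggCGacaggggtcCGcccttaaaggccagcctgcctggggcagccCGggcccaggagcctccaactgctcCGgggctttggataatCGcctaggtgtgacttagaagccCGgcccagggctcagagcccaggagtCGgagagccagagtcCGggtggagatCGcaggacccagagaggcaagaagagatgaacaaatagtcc
Hoxd1: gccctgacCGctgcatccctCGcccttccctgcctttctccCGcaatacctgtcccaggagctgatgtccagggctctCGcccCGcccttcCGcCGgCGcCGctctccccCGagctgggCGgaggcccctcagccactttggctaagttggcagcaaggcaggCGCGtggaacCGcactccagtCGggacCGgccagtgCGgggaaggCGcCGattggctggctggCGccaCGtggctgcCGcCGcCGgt

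The unmarked Hoxa9 held 3 CpGs at 49.6% GC, and the marked Hoxc9 and Hoxd9 held 12 and 11 at 56.0% and 61.6% GC. Hoxd1 held 24 CpGs at 71.6% GC, the most of these 4 genes, and was unmarked.

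A promoter was called marked when at least 1 bp of a peak lay within 1 kb of the TSS of the protein-coding isoform with the longest genomic span. Of the 39 Hox promoters 15 were marked (38.5%, 95% interval 24.9 to 54.1%), beside 48.8% of all protein-coding promoters. This background share lies inside the interval of the Hox genes, but it did not under 3 stricter settings. The TSS itself was inside a peak for 11 Hox genes (28.2%, 16.5 to 43.8%), beside 44.2% of all protein-coding genes. With peaks at least 1 kb wide 10 were marked (25.6%, 14.6 to 41.1%), beside 43.7% of all. With an overlap of at least 500 bp 12 were marked (30.8%, 18.6 to 46.4%), beside 47.4% of all. With any annotated isoform counted, 16 Hox genes were marked (41.0%), beside 51.0% of all. The share differed widely among the clusters. In Hoxc 8 of 9 promoters were marked (88.9%, interval 56.5 to 98.0%). In Hoxd 3 of 9 were marked (33.3%, 12.1 to 64.6%), in Hoxa 3 of 11 (27.3%, 9.75 to 56.6%), and in Hoxb 1 of 10 (10.0%, 1.79 to 40.4%). With peaks at least 1 kb wide no Hoxd promoter was marked. The interval of Hoxc overlapped those of Hoxd and, barely, Hoxa, and did not meet that of Hoxb. Outside Hoxc 7 of 30 Hox promoters were marked (23.3%, 11.8 to 40.9%). Hoxc was left out here after its share had been seen, so this lower value is in part set by that choice and is not read against the background.

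**Figure D1:**
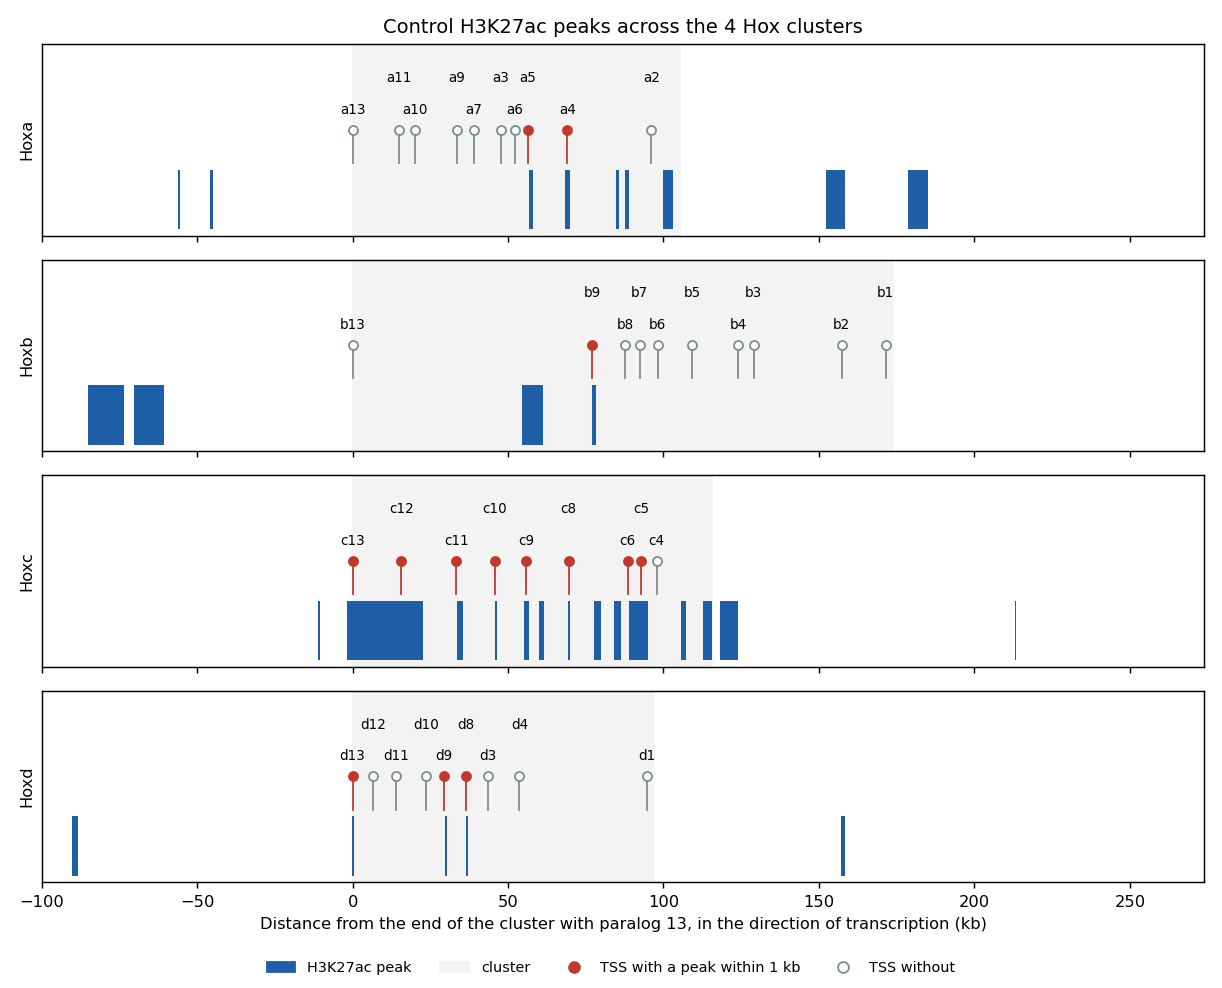
Control H3K27ac peaks (blue boxes) and 38 Hox TSSs (circles, filled red with a peak within 1 kb and open without) across the 4 clusters (grey) and 100 kb on each side, drawn to scale in the direction of transcription from the end with paralog 13. Peaks are spread over the whole of Hoxc, with 8 of 9 TSSs marked, and leave long stretches of Hoxa, Hoxb and Hoxd empty.

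By paralog number, 1 of 8 genes of groups 1 to 3 was marked (12.5%, interval 2.24 to 47.1%), 6 of 15 genes of groups 4 to 8 (40.0%, 19.8 to 64.3%) and 8 of 16 genes of groups 9 to 13 (28.0 to 72.0%). The intervals of these 3 sets overlapped. The 48.8% of all protein-coding promoters lay inside the intervals of groups 4 to 8 and 9 to 13, and just above that of groups 1 to 3. The share in groups 4 to 8 was 20.0% (3 of 15) when at least 500 bp of the window had to lie in a peak, beside 47.4% of all. That in groups 9 to 13 was 31.2% (5 of 16) with peaks at least 1 kb wide, beside 43.7% of all. Hoxc has no gene in groups 1 to 3 and 5 in groups 9 to 13, and without Hoxc the share in groups 9 to 13 was 3 of 11 (27.3%). Group 9 had the most marked genes, 3 of 4, with Hoxa9 the exception. Groups 5 and 8 followed with 2 of 3 genes each, and in group 13, whose genes pattern the hindmost body and the limb ends, Hoxc13 and Hoxd13 were marked and Hoxa13 and Hoxb13 were not.

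**Figure D2:**
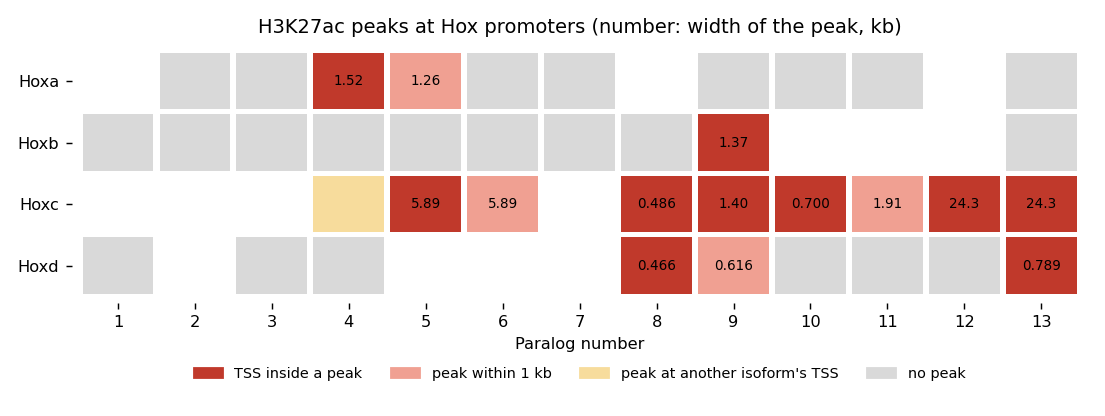
Each square is a Hox gene by cluster (rows) and paralog number (columns). Dark red is a TSS inside a peak, light red a peak within 1 kb, yellow a peak only at another isoform's TSS and grey no peak, with the peak width in kb in the square. A blank place is a paralog that the cluster lacks or that is not drawn. The Hoxc row holds 8 marked genes and the yellow Hoxc4, whereas the Hoxb row holds only Hoxb9.

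The Hoxa cluster (chr6:52155590-52260880, minus strand, 105 kb) held 5 peaks, all in the part of the cluster with low paralog numbers. Hoxa4 had a 1525 bp peak (chr6:52190992-52192516) centred on its TSS, from 763 bp upstream to 761 bp downstream. At Hoxa5 the 1264 bp peak (chr6:52202980-52204243) began 344 bp downstream of the TSS, so the TSS lay outside it, and 36.0% of its bases were Hox coding sequence. The long isoform of Hoxa3 spans Hoxa4 and Hoxa5, so both of these peaks also lay in an intron of Hoxa3. The TSS of that isoform was itself 8.87 kb from a peak.

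In Hoxa 2 peaks touched no Hox promoter. A 1170 bp peak (chr6:52172090-52173259) lay over Hoxa3, with 45.2% of its bases in coding sequence, and covered the TSS of the antisense transcript Gm15050. A 941 bp peak (chr6:52175283-52176223) lay entirely in an intron of Hoxa3 and began 48 bp downstream of the TSS of the antisense transcript Hoxaas3. Among the 8 unmarked Hoxa promoters, Hoxa2, needed for the second pharyngeal arch and hindbrain, was nearest to a peak at 3.64 kb, and Hoxa13 was farthest at 45.1 kb. Hoxa6 was 4.48 kb away, Hoxa7 17.6 kb, Hoxa9 23.1 kb, Hoxa10 36.6 kb and Hoxa11 41.6 kb. From Hoxa6 on the distance thus grew with the paralog number, and no peak lay between Hoxa5 and the end of the cluster. The gap of 102 kb (chr6:52204244-52305883) held 8 Hox TSSs, and 20.2% of all gaps between neighbouring peaks were at least as long.

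The Hoxb cluster (chr11:96194316-96368256, plus strand, 174 kb) held 2 peaks, the fewest of the 4 clusters. Its single marked gene was Hoxb9, whose 1370 bp peak (chr11:96271324-96272693) ran from 133 bp upstream to 1236 bp downstream of the TSS. The other peak was 6940 bp wide (chr11:96248665-96255604), lay in the long stretch between Hoxb13 and Hoxb9, and covered the TSS of the long non-coding RNA Gm53. No base of it was in a Hox transcript. The remaining genes were far from any peak. Hoxb8 was nearest at 9.21 kb and Hoxb1, which specifies hindbrain rhombomere 4, was farthest at 93.1 kb. In between stood Hoxb7 at 13.9 kb, Hoxb6 at 19.8 kb, Hoxb5 at 30.8 kb, Hoxb4 at 45.6 kb, Hoxb3 at 50.6 kb, Hoxb13 at 54.3 kb and Hoxb2 at 78.9 kb. The TSSs of Hoxb1 to Hoxb8 all lay in a gap of 350 kb (chr11:96272694-96622406), and 6.51% of gaps between neighbouring peaks were at least as long.

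The Hoxc cluster (chr15:102921103-103036852, plus strand, 116 kb) held 11 peaks. At its start Hoxc13, known for its role in hair and nail formation, and Hoxc12 shared a peak of 24273 bp (chr15:102919397-102943669), which was wider than 98.7% of all peaks in the list. Only 7.51% of its bases were coding sequence and 60.6% lay outside protein-coding Hox transcripts. The peaks at the next genes were far narrower. Hoxc11 had a 1913 bp peak (chr15:102954607-102956519) that began 180 bp downstream of its TSS. Hoxc10 had a 700 bp peak (chr15:102966788-102967487) from 8 bp upstream to 691 bp downstream, and 90.0% of it was coding sequence. Hoxc9 had a 1397 bp peak (chr15:102976335-102977731) from 697 bp upstream to 699 bp downstream. Hoxc8 had a 486 bp peak (chr15:102990512-102990997) from 95 bp upstream to 390 bp downstream.

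Hoxc5 and Hoxc6 shared a peak of 5887 bp (chr15:103010148-103016034). It held the TSS of Hoxc5 and began 575 bp downstream of that of Hoxc6. Hoxc4 was the single unmarked gene of the cluster, with its TSS 2.90 kb from a peak. This depended on the isoform, since the TSS of its shorter protein-coding isoform (position 103034395) lay inside a 2757 bp peak (chr15:103033810-103036566). That peak touched no Hox promoter as set by the isoform with the longest span. The same held for 1 in an intron of Hoxc4 (chr15:103026874-103028330, 1457 bp) and 1 over the body of Hoxc9 (chr15:102980912-102982520, 1609 bp). It also held for 2 in the annotated Hoxc6 gene, upstream of the TSS of its coding isoform (chr15:102998831-103000976 and chr15:103005211-103007476, 2146 and 2266 bp). The longest gap between peaks in Hoxc was 10.9 kb (chr15:102943670-102954606), and 71.7% of all gaps were at least as long. This gap held the TSS of Hoxc11.

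The Hoxd cluster (chr2:74668310-74765142, plus strand, 96.8 kb) held 3 peaks, each at a Hox promoter and each narrower than 1 kb. Hoxd13, a gene of digit formation, had a 789 bp peak (chr2:74668120-74668908) from 190 bp upstream to 598 bp downstream of the TSS. Hoxd9 had a 616 bp peak (chr2:74697929-74698544) that began 202 bp downstream of its TSS. Hoxd8 had a 466 bp peak (chr2:74704829-74705294) from 76 bp upstream to 389 bp downstream. Of the unmarked genes Hoxd10 was nearest to a peak at 6005 bp and Hoxd1 was farthest at 57.7 kb. Hoxd12 was 6.11 kb, Hoxd3 6.63 kb, Hoxd11 13.4 kb and Hoxd4 16.7 kb away. Hoxd1, Hoxd3 and Hoxd4 started in a gap of 120 kb (chr2:74705295-74825427), and 17.3% of all gaps were at least as long.

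The shares of bases inside peaks ordered the clusters differently from the promoter counts. Peaks covered 37.3% of Hoxc, or 43.2 kb, and 1.22% of 27247 windows of 100 kb across the chromosomes reached that coverage. In Hoxa they covered 7.86%, which 12.7% of windows reached. In Hoxb they covered 4.78%, reached by 18.2% of windows, and in Hoxd 1.74%, reached by 30.4%. With peaks at least 1 kb wide the Hoxd coverage was 0. Hoxb thus had a larger covered share than Hoxd with fewer marked promoters, since 1 wide peak at Gm53 made up most of its 8.31 kb. Per 100 kb there were 9.50 peaks in Hoxc, 4.75 in Hoxa, 3.10 in Hoxd and 1.15 in Hoxb. Hoxa, Hoxb and Hoxc were above the 3.29% covered across the chromosomes, and Hoxd was below it.

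The stretches of 100 kb beyond the clusters differed as well. Beyond the paralog 13 end, 20.9% of bases next to Hoxb were covered, by 2 peaks near Calcoco2 and Ttll6, beside 2.31% at Hoxc, 2.22% at Hoxd and 1.45% at Hoxa. Beyond the opposite end, 12.3% were covered next to Hoxa, 6.12% next to Hoxc, 1.19% next to Hoxd and 0 next to Hoxb. The Hoxc cluster was the only one of the 4 with a larger covered share than both of its flanks.

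**Figure D3:**
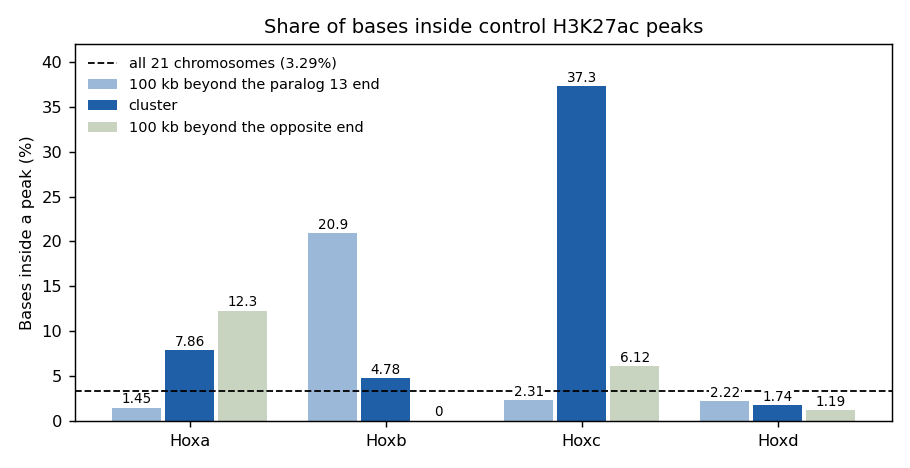
Bars give the percent of bases inside control H3K27ac peaks in each cluster (dark blue) and in 100 kb beyond either end (light blue and green), on an axis from 0. The dashed line is the 3.29% of all 21 chromosomes. Hoxc stands at 37.3%, above both of its flanks, while Hoxa, Hoxb and Hoxd each have a flank that is covered more than the cluster.

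The 15 marked Hox promoters shared 13 peaks. The median width of the peak at a marked Hox promoter was 1397 bp (range 466 to 24273 bp), beside 2174 bp at all marked protein-coding promoters. Of the window of 1 kb on each side of the TSS, a median of 821 bp lay in a peak at marked Hox promoters and 1691 bp at all marked promoters. The whole window was covered for 3 of 15 Hox genes, beside 28.0% of all marked protein-coding genes. Peaks narrower than 1 kb marked 5 of 15 Hox promoters (33.3%), namely those of Hoxc8, Hoxc10, Hoxd8, Hoxd9 and Hoxd13, beside 10.6% of all marked promoters. The midpoint of the peak lay downstream of the TSS for 11 of 15 Hox genes (73.3%), beside 67.6% of all. The 4 marked genes whose TSS was outside the peak, Hoxa5, Hoxc6, Hoxc11 and Hoxd9, all had the peak downstream. Over all protein-coding genes 10674 promoters were marked and 9663 TSSs lay inside a peak. The side of the peak at the rest was not counted.

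**Figure D4:**
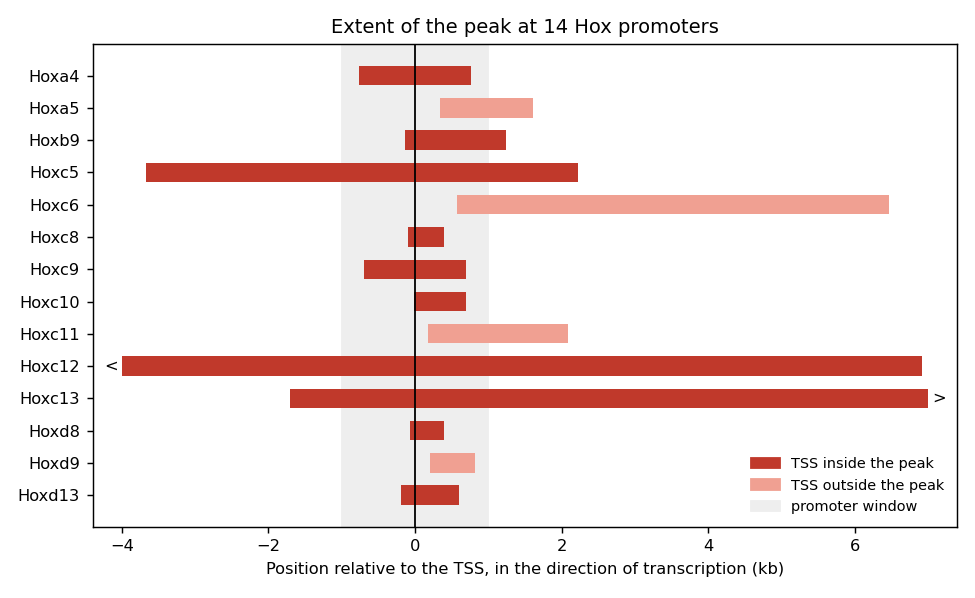
Horizontal bars show where the peak at 14 of the 15 marked Hox promoters lies relative to the TSS (vertical line, 0) in kb along the direction of transcription, with the promoter window in grey. Dark red bars contain the TSS and light red bars do not. Arrowheads mark bars that run beyond the axis, as for the 24273 bp peak at Hoxc12 and Hoxc13.

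The 24 unmarked Hox promoters lay a median of 18.7 kb (range 2.90 to 93.1 kb) from the nearest peak, beside 60.3 kb for all unmarked protein-coding promoters. Across the 4 clusters 21 peaks were found, of which 13 touched a Hox promoter and 8 did not. Promoters were those of the isoforms with the longest span, and the peak at the shorter Hoxc4 isoform is among the 8. Their median width was 1457 bp, beside 2068 bp for all peaks, and 6 of 21 (28.6%) were narrower than 1 kb, beside 13.9% of all. Of the 21 peaks 14 touched Hox coding sequence, whereas 41.0% of all peaks touched protein-coding sequence of any gene. By bases, 14.4% of these peaks was coding sequence, 10.3% UTR, 25.7% intron and 49.6% outside protein-coding Hox transcripts. Peaks held 75.7% of the Hox coding sequence of Hoxc, 17.3% of that of Hoxa, 12.3% of that of Hoxd and 6.10% of that of Hoxb.

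Bases inside peaks were richer in GC and CpG than the rest of the cluster in each of the 4 clusters. The contrast was greatest in Hoxd, where peaks had 72.3% GC and 130 CpGs per kb and the remainder 49.0% GC and 26.3 CpGs per kb. In Hoxa the CpG density was 64.2 per kb inside and 26.9 outside, in Hoxb 34.3 and 20.2, and in Hoxc 33.0 and 14.6. The 3 Hoxd peaks held 125, 130 and 137 CpGs per kb. The Hoxd contrast rests on 1681 bp inside the cluster, of which 64.7% was coding sequence, beside 9.12% of the whole cluster.

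Over the promoter window, marked Hox genes had a median GC content of 57.6% (range 48.0 to 68.2%) and unmarked ones 54.1% (45.1 to 67.8%), so the ranges overlapped almost wholly. The observed over expected CpG ratio, which compares the number of CpGs with that expected from the C and G content, had a median of 0.670 (0.383 to 0.909) at marked and 0.549 (0.173 to 0.867) at unmarked Hox promoters. Over all protein-coding promoters the medians were 0.641 for marked and 0.227 for unmarked ones. The unmarked Hox promoters therefore had more CpG than unmarked promoters in general. With CpG-rich defined as GC above 50% and a ratio above 0.6, 18 of 39 Hox promoters were CpG-rich (46.2%), beside 30.5% of all. Of the CpG-rich Hox promoters 9 of 18 were marked (interval 29.0 to 71.0%), whereas 83.1% of all CpG-rich protein-coding promoters were. The 9 that were CpG-rich without a peak were Hoxa11, Hoxa13, Hoxb4, Hoxb5, Hoxb7, Hoxd1, Hoxd3, Hoxd10 and Hoxd11. Of the other 21 Hox promoters 6 were marked, beside 33.8% of the other protein-coding promoters.

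Hoxc was set apart here after its share had been seen. In Hoxa, Hoxb and Hoxd 6 of 7 marked promoters were CpG-rich, with a median ratio of 0.840, beside 51.8% of all marked protein-coding promoters. Of the 23 unmarked promoters of these clusters 9 were CpG-rich, with a median ratio of 0.549, beside 10.1% of all unmarked protein-coding promoters. In Hoxc 3 of 8 marked promoters were CpG-rich, with a median of 0.545, and the single unmarked promoter, Hoxc4, was not, at 0.173. With 1 unmarked gene no relation to CpG can be read in Hoxc, and no difference between clusters was tested.

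**Figure D5:**
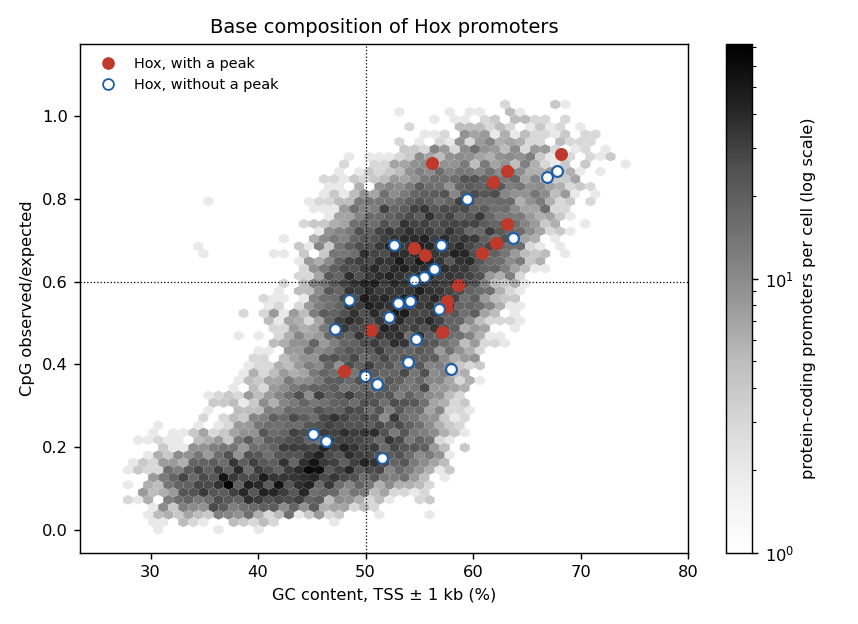
GC content (x axis, percent) and observed over expected CpG (y axis) in the promoter window of all protein-coding genes (grey, darker for more genes on a log scale) and of Hox genes with a peak (red) and without (open blue). Dotted lines mark 50% GC and a ratio of 0.6. Hox genes with and without a peak overlap, and 9 of each lie in the CpG-rich quadrant.

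Short sequences tied to Hox regulation were searched as exact matches on both strands. The site TGATNNAT, bound by pairs of PBX and HOX proteins, was present in 20 of 39 Hox promoters (51.3%), beside 46.4% of all protein-coding promoters. It was present in 7 of 15 marked and 13 of 24 unmarked Hox promoters, beside 37.6% of all marked and 54.7% of all unmarked promoters. The octamer ATGCAAAT, bound by POU factors such as Oct4, was found in 3 Hox promoters (7.69%, beside 9.16% of all). These were Hoxa10, Hoxb6 and Hoxb8, all unmarked. They made up 12.5% of the unmarked Hox promoters, near the 11.2% of all unmarked promoters, and 7.06% of all marked promoters held the octamer. A strict consensus of the insulator protein CTCF was in none of the 39 promoters and in 1.67% of all, a share so low that its absence says little. The consensus occurred 1 time in the clusters, in Hoxb, and outside peaks. Sites that depart from it were not searched, so this is not a count of CTCF sites.

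Retinoic acid receptors bind direct repeats of a hexamer with a spacer of 5 bases, called DR5 elements. The hexamers searched were AGGTCA and the variant AGTTCA. Also admitted were GGGTCA and, with a change of a single base from it, GGTTCA. Pairs in this arrangement were absent from the Hox promoters and present in 0.595% of all promoters. In the clusters and their 100 kb flanks 10 matches were found, of which 1 was in a peak, and over the 21 chromosomes 4.62% of 9284 matches were in a peak. Of the 10 matches 6 paired the same hexamers, of which 5 are shown and the other lay outside peaks. They are named by the nearest Hox TSS, counting only the isoform of each gene with the longest span. Shorter isoforms of Hoxa3 (TSS at 52183855), Hoxb3 (96343769) and Hoxd3 (74739619) start nearer to the elements named by Hoxa2, Hoxb2 and Hoxd4. The set allows like elements to be compared between clusters. Capitals mark the hexamers, and each is written on the strand that matched.
Hoxa, upstream of Hoxa2: GGTTCAagaagAGTTCA
Hoxb, upstream of Hoxb2: GGTTCAagaagAGTTCA
Hoxd, downstream of Hoxd4: GGTTCAagcagAGTTCA
Hoxc, downstream of Hoxc4: GGTTCAccgagAGTTCA
Hoxb, downstream of Hoxb1: GGTTCAtagagAGTTCA

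The Hoxa element upstream of Hoxa2 (chr6:52175533-52175549, minus strand), 10.7 kb from the TSS in an intron of Hoxa3, was the match inside a peak, namely the 941 bp peak described above. An identical copy in Hoxb (chr11:96341236-96341252, plus strand) lay at a like distance upstream of Hoxb2, 10.4 kb, and 68.5 kb from the nearest peak. The Hoxd copy (chr2:74741540-74741556, plus strand) differed from the Hoxa copy by A9C, with positions counted from 1 at the 5′ end, and lay 36.2 kb from a peak. The element beyond Hoxc (chr15:103061714-103061730, plus strand) was 42.8 kb downstream of Hoxc4 and 16.7 kb from a peak. The element downstream of Hoxb1 (chr11:96372776-96372792, plus strand), 7.02 kb from that TSS, was 100 kb from a peak. The identical Hoxa and Hoxb copies thus differed in whether a peak was listed over them. Whether a receptor was bound was not measured.

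The clusters also hold genes of microRNAs, some of which target Hox transcripts. One arm of each mature microRNA is shown from RefSeq for GRCm38.p6, with bases 2 to 8 (the seed) in capitals, and the opposite arms were left out. The arms shown were chosen because members of the miR-10 and miR-196 families share their seed in them.
miR-10a-5p, Hoxb: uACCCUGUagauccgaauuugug
miR-10b-5p, Hoxd: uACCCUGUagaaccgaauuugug
miR-196a-5p, Hoxb and Hoxc: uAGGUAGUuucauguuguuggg
miR-196b-5p, Hoxa: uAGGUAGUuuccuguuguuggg
miR-615-3p, Hoxc: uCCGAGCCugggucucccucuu

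Mir615 lay inside the 5887 bp peak of Hoxc5 and Hoxc6 and was the only one of these genes in a peak. Mir196a-2, also in Hoxc, was 2.98 kb from a peak and its second gene copy in Hoxb, Mir196a-1, was 6.16 kb away. Mir10b in Hoxd was 20.8 kb, Mir196b in Hoxa 25.8 kb and Mir10a in Hoxb 44.5 kb from a peak. Members of the same seed family were therefore at very different distances from peaks.

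Genes beside the Hox genes were counted within 100 kb of the cluster ends. Of 9 protein-coding neighbours 4 were marked, namely Calcoco2, Ttll6, Lnpk and Mtx2, which are not homeobox genes, beside the 48.8% of all protein-coding promoters. Evx1 and Evx2, homeobox genes that adjoin Hoxa13 and Hoxd13, were unmarked, 2.93 and 8.56 kb from a peak. Of 13 long intergenic non-coding RNA genes 3 were marked (Halr1, Gm53 and D930007P13Rik), beside 15.3% of all such promoters, and of 11 antisense genes 5 were marked, among them Gm15050, Hoxaas3, 4930445N08Rik and Gm28793, beside 28.7% of all antisense promoters. Hotair, a non-coding RNA of the Hoxc cluster, was 4.06 kb from a peak although it lay between marked genes, and Hottip, next to Hoxa13, was 43.1 kb away.

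Proteins of the PBX, MEIS and PKNOX families bind DNA together with Hox proteins. Of 9 genes for these cofactors 4 were marked (44.4%, interval 18.9 to 73.3%), among them Pbx3, Meis2 and Pknox1, each with the TSS inside a peak. The 5 unmarked genes, Pbx2, Pbx4, Meis1, Meis3 and Pknox2, lay between 8.94 kb (Pbx4) and 54.8 kb (Meis1) from a peak. The interval of the cofactors held both the background share and that of the Hox genes. Of the 8 ParaHox and Evx genes, the closest relatives of the Hox genes outside their own number, Gsx2 and Cdx1 were marked (25.0%, 7.15 to 59.1%). Cdx2, Cdx4, Evx1 and Evx2 were among those unmarked. The share was 12.5% with the TSS inside a peak, beside 44.2% of all protein-coding genes. It was also 12.5% with peaks at least 1 kb wide, beside 43.7% of all. Of 16 genes for retinoic acid receptors and for making, carrying or degrading retinoic acid 7 were marked (43.8%, 23.1 to 66.8%), among them Crabp1, Dhrs3, Rara and Rarg. The 48.8% of all protein-coding promoters lay inside this interval and that of the ParaHox and Evx genes. Aldh1a1, Aldh1a2 and Aldh1a3, enzymes that make retinoic acid, and Crabp2 were among the 9 unmarked, and Rarb had a peak at another isoform.

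Other families of developmental transcription factors gave the nearest comparison. Of 102 other homeobox factors 24 were marked (23.5%, interval 16.4 to 32.6%), and of 44 forkhead factors 15 (34.1%, 21.9 to 48.9%). The intervals of both overlapped that of the Hox genes. The 48.8% of all protein-coding promoters lay above the interval of the other homeobox factors and near the upper end of that of the forkhead factors. The share of the other homeobox factors depended on the setting, at 9.80% with the TSS inside a peak, where the Hox share was 28.2% and that of all protein-coding genes 44.2%, and at 13.7% with peaks at least 1 kb wide, where the Hox share was 25.6% and that of all 43.7%. Marked promoters of other homeobox factors had a median peak width of 1488 bp, with 10 of 24 (41.7%) below 1 kb, near the 1397 bp and 33.3% of the Hox genes. Marked forkhead promoters had a median of 4030 bp with 1 of 15 below 1 kb.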

How the data were processed

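H3K27ac ChIP-seq was performed in mESCs under 3 conditions with 2 replicates each. The deposited control file gives peak positions in bp of mm10 (chromosome, start and end, no score), pooled by the authors over both control replicates. Per their methods, reads were trimmed (Cutadapt), aligned jointly to the genomes of mouse and human (bwa meme), freed of duplicates (Picard 2.9.1) and of poorly mapped reads (SAMtools 1.4), and peaks were called with LanceOtron, merged within 2 kb (Bedtools), and filtered by height over input (deepTools) and by distance to ATAC-seq summits. A missing peak can therefore reflect a filter, and a wide one a merge.

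Peaks were overlapped with GENCODE M21, which precedes the release in the methods, and with the RefSeq GRCm38.p6 sequence, on 21 chromosomes. The TSS was that of the protein-coding isoform with the longest genomic span, and promoters were ±1 kb with an overlap of at least 1 bp. Cluster limits were the outermost Hox gene ends. The Hox genes, the gene lists and the motifs were chosen with earlier results of these data known. All 39 Hox genes are in the counts, and some items are not reported here by name. Outside the Hox genes neighbours within 100 kb and members of the lists are named, a list's marked or unmarked members where 5 or fewer (apart from items not reported) and otherwise up to 4 by alphabetical order. Rarb was chosen after its value was seen. No tests were run, since the list has no replicates. Overlap counts were checked on simulated peaks. Python 3.11.15, numpy 2.4.6, scipy 1.17.1 and matplotlib 3.10.9 were used.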

Additional observations from a re-analysis of the deposited data

How the results depend on the processing

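The promoter window, isoform, peak width and overlap that count were varied, and the Hoxc cluster had the highest share of marked promoters under each. The Hoxb cluster had the lowest, except with peaks at least 1 kb wide, where the Hoxd share and the Hoxd coverage were both 0. The Hoxc share was 100% with any isoform and, in an alternative chosen after seeing the data, with the principal isoform, and the Hox share was 23.3% with Hoxc left out, also chosen later. The share of the ParaHox and Evx genes was 12.5% with peaks at least 1 kb wide or with the TSS inside a peak. The share of other homeobox factors was 9.80% with the TSS inside a peak and 13.7% with peaks at least 1 kb wide. Of 312 values of single Hox genes 15 changed call, 2 to marked and 13 to unmarked. Both changes to marked were Hoxc4, under any isoform and the principal isoform, and the changes to unmarked came with the TSS inside a peak, the window of ±500 bp, peaks at least 1 kb wide or an overlap of at least 500 bp. No paired analysis was possible because the 1 peak list pools both replicates, and for the same reason no replicate could be left out. Signal over background and depth cannot be read from positions.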
